A study of Mus musculus with 9 samples.

Results

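The enzymes that turn glucose into lactate were examined in jejunal RNA of mice kept on different feeds. The genes were Hk1, Hk2, Gpi1, Pfkl, Pfkp, Aldo1 (the name the arrays give to Aldoa), Tpi1, Pgk1, Eno1 and Ldha, 10 of the 15961 genes named on the arrays, and together they had 16 of the 33012 probes. Probes were taken by gene symbol for 8 of the genes (12 probes). Tpi1 and Ldha stand on the arrays under the older symbols Tpi and Ldh1 and were matched through their RefSeq accessions. A pair of probes each represented Gpi1, Aldo1, Tpi1, Pgk1, Eno1 and Ldha, whereas Hk1, Hk2, Pfkl and Pfkp had 1 probe. The samples were 9 pieces of jejunum, each from 1 male OF1 mouse aged 7 weeks and each hybridised to 1 single-colour chemiluminescent array. OF1 is an outbred stock, so that the mice of one feed are not genetically identical. Feed B was given to mice B7, B8 and B10, feed K to mice K1, K3 and K4, and feed G to mice G4, G8 and G11 (letter of the feed and number of the mouse), which belonged to generation 3 of a line kept on that feed. What the letters stand for is not given in the sources used here, the hour of sampling was not randomized, and all mice had been deprived of food for a few hours, as the methods of the study state. No feed was therefore treated as the control, and the comparison asked whether the level of an enzyme differed among the feeds and how much it varied from mouse to mouse.

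Glycolysis splits glucose into pyruvate in the cytosol, and lactate dehydrogenase reduces pyruvate to lactate. Hexokinases trap glucose as glucose-6-phosphate, phosphofructokinase commits it to breakdown, and the enzymes from aldolase to enolase work near equilibrium, so that several of them also serve gluconeogenesis. The intestinal epithelium uses glucose partly by this route and passes lactate on to the portal blood, and many of the genes are textbook targets of the hypoxia-inducible factors, which bind the core letters ACGTG.

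These letters were looked for on both strands in the 250 bases before each RefSeq start site, since they mark where such a factor could bind. RefSeq gave 16 start sites for the 10 genes (build GRCm38.p6). The letters were found before 5 of the 16 sites (31.2%), which belonged to 4 of the 10 genes (Hk2, Aldo1, Pgk1 and Ldha), and before 5444 of all 32851 sites (16.6%). The stretches are shown 5′ to 3′ on the strand of the gene, with the letters of the match in capitals. CACGT is ACGTG read on the other strand, and CACGTG holds the match on both strands and is also an E-box, found before 6.02% of all sites. They lie at chr6:82774664-82774692 and chr6:82774490-82774518 (minus strand) for Hk2, at chr7:126799364-126799392 (minus strand) for Aldo1, at chrX:106186938-106186966 and chrX:106186957-106186985 (plus strand) for Pgk1, and at chr7:46845647-46845676, chr7:46845744-46845773 and chr7:46845758-46845786 (plus strand) for Ldha.
Hk2, distal: agccacggaacaCACGTcccaactctggc
Hk2, proximal: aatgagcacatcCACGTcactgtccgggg
Aldo1: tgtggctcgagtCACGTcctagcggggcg
Pgk1, distal: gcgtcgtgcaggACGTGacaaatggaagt
Pgk1, proximal: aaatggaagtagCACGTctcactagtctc
Ldha, distal: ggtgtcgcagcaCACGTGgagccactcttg
Ldha, middle: cggcccagcctaCACGTGggttcccgcacg
Ldha, proximal: cgtgggttcccgCACGTccgctgggctcc
The stretches of Hk2 and Pgk1 lie outside the annotated gene. Those of Aldo1 and Ldha lie inside the annotated span of the gene, and whether they are exonic or intronic was not resolved here. The letters describe the sequence and were not taken as sites of binding.

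A gene counted as detected in a mouse when a spot of it had not failed and its signal was 3 or more times the noise measure of that spot. By this rule 7 of the 10 enzymes were detected on all 9 arrays, compared with 37.5% of all genes: Hk2, Gpi1, Pfkl, Aldo1, Tpi1, Pgk1 and Ldha. Hk1 and Eno1 were detected on 6 arrays. Pfkp was detected only in mouse G4, so that 9 of the 10 enzymes were tested (61.8% of all genes were detected on at least 3 arrays). Probes differ in how strongly they bind, and the level of one probe was never set against that of another. All levels are log2 of the quantile-normalised signal.

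The share of all probes detected was between 33.7% and 43.6% on the arrays of feed B, between 41.2% and 47.6% for feed K and between 46.4% and 48.1% for feed G. The enterocyte markers Fabp2, Vil1, Apoa4 and Slc5a1, all 4 with a probe of 7 listed, were detected in every mouse. The signals of the 3 of 4 ileal markers detected on at least 3 arrays (Fabp6, Slc10a2 and Ostb) were summed. The log2 of this sum ranged from 15.2 to 18.4 on feed B, 15.5 to 15.6 on feed K and 14.8 to 19.6 on feed G. Mouse G11 was highest. Fabp6, the ileal bile acid-binding protein, reached a log2 signal of 19.51 there, compared with 17.84 in B10, 15.81 in B7 and at most 12.19 in the other mice. Of 4 genes of the exocrine pancreas, 0 were detected on 3 arrays or more.

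None (0) of the 9 enzymes tested differed among the feeds at an adjusted p of 0.05 (limma, moderated F test, Benjamini-Hochberg adjustment over 9856 genes), and the test called 0% of all genes. At an unadjusted p below 0.05 the F test called 0 of the 9, compared with 5.45% of all genes (537 genes). Of the pairs of feeds, G minus B had an unadjusted p below 0.05 for 1 of the 9 (Aldo1), compared with 5.78% of all genes. K minus B did so for 0 of the 9 (6.5% of all genes) and G minus K for 0 of the 9 (4.69% of all genes). The value of Aldo1 averages in a dim probe that was not detected on feed B. Every mouse of feed K lay above every mouse of feed B for 0 of the 9 enzymes (6.3% of all genes), and the same held for feed G (0 of 9, compared with 6.28% of all genes).

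**Figure D1:**
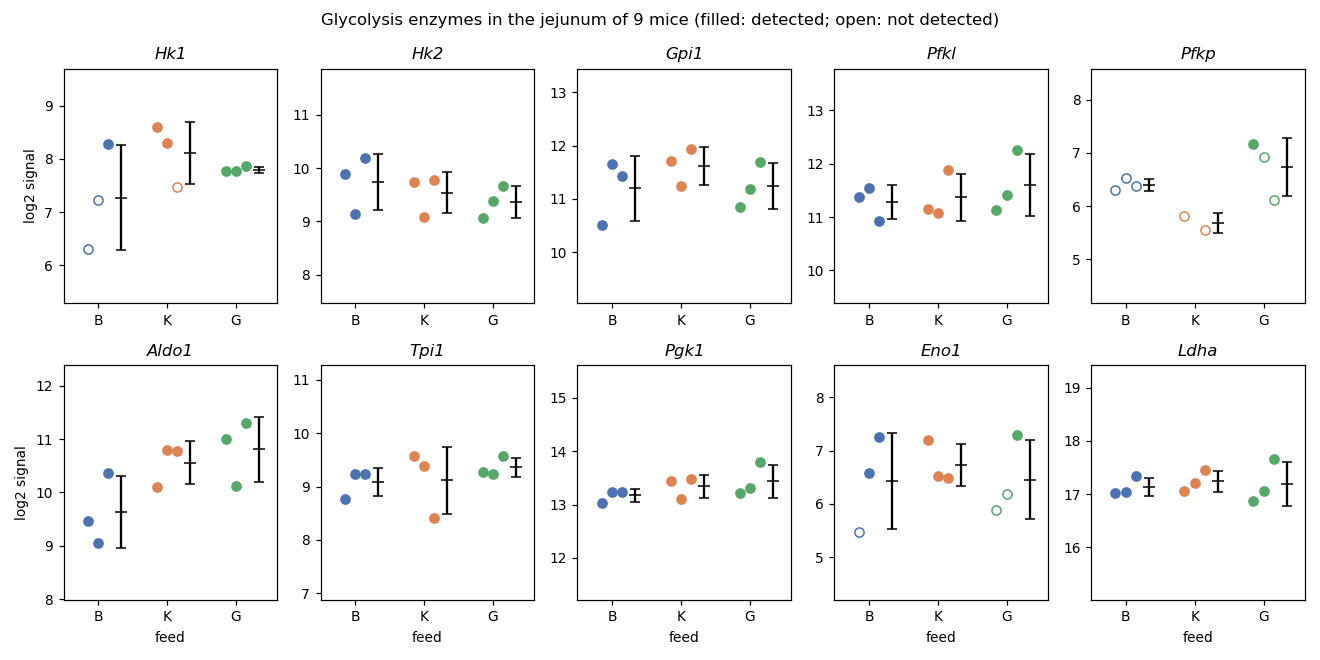
Log2 signal of the 10 enzymes (vertical axis, each panel spanning the same number of log2 units) in the mice on feed B, K and G, with probes of a gene averaged. Filled points mark mice in which the gene was detected, open points those in which it was not, and bars give mean ± SD. The feeds overlap for each of the 9 enzymes tested, and only Aldo1 has its lowest mean on feed B with both other feeds about 1 unit higher. The dimmer Aldo1 probe in this average was not detected on feed B.

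The hexokinases stand at the entry of the pathway. Hk1, the general hexokinase bound to mitochondria (chr10:62268855-62379920), had log2 signals of 6.31, 7.23 and 8.28 in mice B7, B8 and B10. On feed K the log2 signals were 8.59, 8.29 and 7.47 in K1, K3 and K4, and on feed G they were 7.77, 7.77 and 7.86 in G4, G8 and G11. The 3 mice on feed G lay within 0.1 log2 units of each other, whereas those on feed B spread over almost 2 units, but 2 of the 3 values of feed B came from arrays on which Hk1 was not detected. The difference of K from B was 0.84 ± 0.48 (log2, SE) and that of G from B was 0.52 ± 0.48. Both hung on single mice of feed B: without B7 they were 0.37 and 0.05, and without B10 they were 1.34 and 1.03. Hk1 was detected in 1, 2 and 3 mice of B, K and G, on feed B in B10 alone. It met the limit of 3 arrays only through feeds K and G, where its means are higher. These differences are therefore a description, with no test. Hk2, the hexokinase of insulin-responsive tissues (chr6:82725025-82774454), was detected in every mouse, with log2 signals of 9.89, 9.15 and 10.18 on feed B, 9.75, 9.09 and 9.77 on feed K and 9.07, 9.38 and 9.67 on feed G. Hk2 was the only one of the 9 with lower means on both K and G than on B, by 0.20 ± 0.33 and 0.37 ± 0.33 log2 units (SE), differences that the spread between mice covers. With median scaling of the arrays, K and G each lay 0.20 above B. The median of all genes was then 0.40 for K minus B and 0.53 for G minus B. Relative to it Hk2 was at -0.21 and -0.33.

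Gpi1 encodes glucose-6-phosphate isomerase (chr7:34201327-34230336), which interconverts the phosphates of glucose and fructose. Averaged over its probes, its log2 signal was 11.20 ± 0.606 on feed B, 11.62 ± 0.356 on feed K and 11.24 ± 0.428 on feed G (SD, n = 3 each). The brighter probe, 900795, gave log2 signals of 15.13, 15.64 and 15.26 on feed B, 15.32, 14.96 and 15.64 on feed K and 15.12, 14.89 and 15.33 on feed G. The dimmer probe, 662059, was detected on 5 arrays and went down to 5.90 in B7 and 6.58 in G4, where it was not detected. With the average, K minus B was 0.42 ± 0.36 log2 units, and with the brighter probe alone it was -0.04 ± 0.24, so that the direction depended on which probes were read.

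Phosphofructokinase was represented by its liver-type subunit Pfkl and its platelet-type subunit Pfkp. Pfkl (chr10:77986947-78009807) had log2 signals of 11.37, 11.55 and 10.92 on feed B, 11.15, 11.08 and 11.88 on feed K and 11.14, 11.42 and 12.25 on feed G. The highest value was that of G11, and without this mouse G minus B went from 0.32 ± 0.35 to -0.00 ± 0.32 log2 units. Pfkp (chr13:6579874-6649060) was at the noise of the array: its signal-to-noise ratio was 3.42 in G4 and 2.94 in G8, at most 0.97 in the other mice, and the spot of K3 had failed. The muscle-type subunit Pfkm, from the list of further glycolysis genes, had log2 signals of 8.59 and 8.60 in B7 and B10, with a failed spot in B8 that the fit left out. It lay between 7.54 and 7.72 on feed K and between 6.88 and 7.75 on feed G, below both mice on feed B. Its F test had an unadjusted p of 0.00714 and an adjusted p of 0.739 (limma). Pfkm was detected on 5 arrays only, in 1, 2 and 2 mice of B, K and G. Of its 2 values on feed B, 1 was therefore without detection, and such a separation was not counted over all genes.

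Aldo1, aldolase A (chr7:126795234-126800994), cuts fructose bisphosphate into triose phosphates. With its probes averaged, it showed the greatest difference between feeds among the 9 enzymes. Its averaged log2 signals were 9.46, 9.06 and 10.37 on feed B, 10.09, 10.80 and 10.78 on feed K and 11.00, 10.12 and 11.30 on feed G. Mice B7 and B8 lay below all others, while B10 lay above K1 and G8. G minus B was 1.18 ± 0.43 log2 units (SE, 95% interval 0.20 to 2.16, unadjusted p = 0.0237, adjusted p = 0.81 by limma) and K minus B was 0.93 ± 0.43 (unadjusted p = 0.0593). This average includes the dimmer probe, 846189, which was not detected on feed B. The interval and p-values of the average therefore rest in part on noise. With the brighter probe alone, G minus B had an unadjusted p of 0.547 (limma). The unadjusted p of G minus B from the average rose above 0.05 when B7, B8, G4 or G11 was left out (0.062, 0.0786, 0.068 and 0.0855, with differences of 1.11, 0.93, 1.08 and 0.92). Over the 280 splits of the 9 mice into feeds, an exact permutation test of F on the average gave p = 0.111. The smallest p it can give is 0.00357.

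The probes of Aldo1 differed in this. The brighter probe, 436988, was detected in every mouse, with log2 signals of 12.47, 13.27 and 14.15 on feed B, 14.22, 13.79 and 13.97 on feed K and 13.45, 12.90 and 14.49 on feed G. Its G minus B was 0.31 ± 0.50 log2 units (unadjusted p = 0.547 by limma), and the mice of all 3 feeds were interleaved. The dimmer probe, 846189, was detected in 0 of 3 mice on feed B, in K3 alone on feed K and in all 3 mice on feed G. Its log2 signals were 6.44, 4.85 and 6.59 on feed B, 5.97, 7.81 and 7.59 on feed K and 8.55, 7.35 and 8.10 on feed G. The signal-to-noise ratios on feed B were 0.53, -2.69 and 1.94, so that its feed B values are noise, and the probe met the limit of 3 arrays only through feed G, where it is high. Its values are therefore given as a description, with no test. The mean share of all probes detected ran in the same order, with 38.0% for feed B, 43.6% for feed K and 47.1% for feed G. The enterocyte glucose transporter Slc5a1 was likewise lowest on feed B (mean log2 signals of 15.39, 16.53 and 16.34 for B, K and G). The other enterocyte markers also had their lowest mean on feed B. These means were 20.22, 20.47 and 20.43 for Fabp2, 17.77, 18.10 and 17.80 for Vil1, and 17.64, 18.23 and 17.80 for Apoa4. The summed level of the 4 enterocyte markers, of which Fabp2 is the brightest, ranged from 20.4 to 21.1, 20.9 to 21.1 and 20.8 to 21.1. The part of these in the values was not tested, and in pieces of tissue a change in the share of cells of a type cannot be told apart from a change in the RNA of each cell. Aldo2 (aldolase B, the fructose-handling aldolase of liver, kidney and small intestine) had mean log2 signals of 16.76 ± 0.408, 17.10 ± 0.130 and 16.70 ± 0.364 for B, K and G (SD, n = 3 each) and an adjusted p of 0.899 in the F test (limma).

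**Figure D2:**
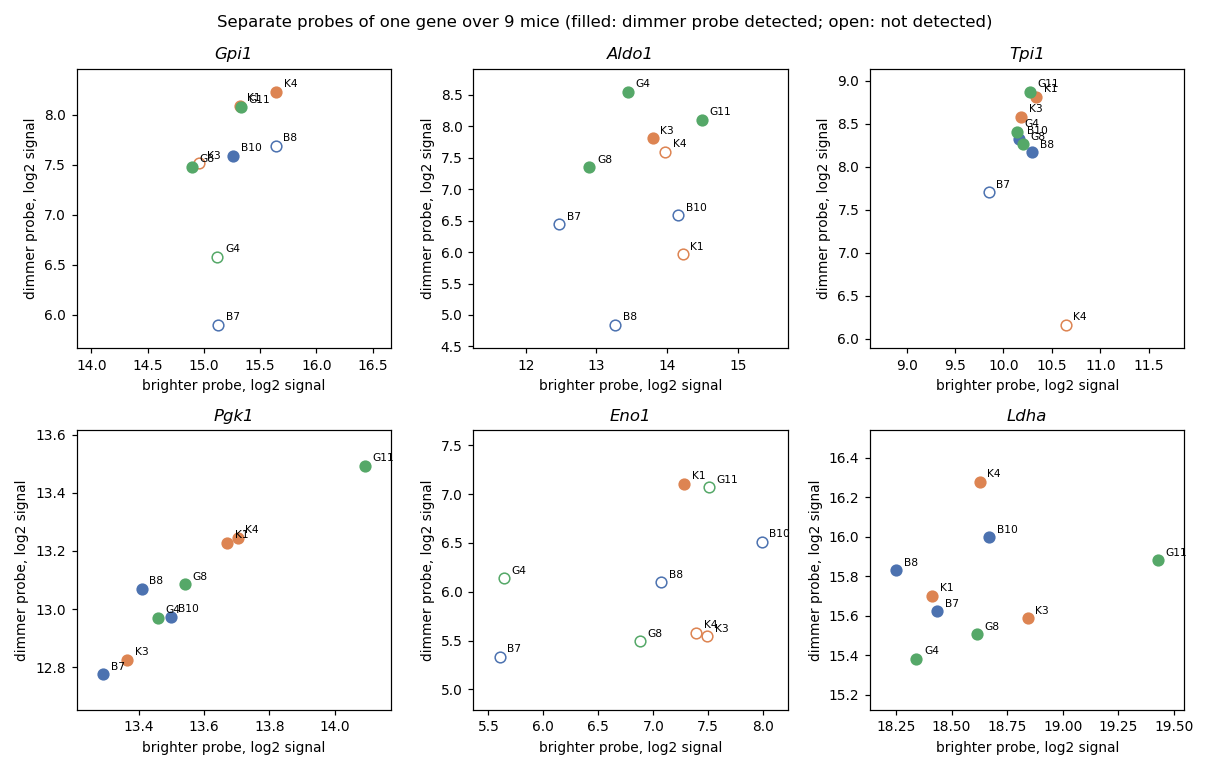
Log2 signal of the dimmer probe (vertical axis) against that of the brighter probe (horizontal axis) for the 6 enzymes with a pair of probes, 1 point per mouse, coloured by feed (blue B, orange K, green G) and open where the dimmer probe was not detected. Both axes of a panel span the same number of log2 units. The Pgk1 probes rise together, those of Ldha scatter, and in the other panels the dimmer probe drops on arrays where it was not detected.

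Tpi1, triosephosphate isomerase (chr6:124810586-124814158), makes the products of aldolase interchangeable. Its averaged log2 signals were 8.77, 9.23 and 9.24 on feed B, 9.57, 9.38 and 8.40 on feed K and 9.27, 9.23 and 9.57 on feed G. The low value of K4 came from the dimmer probe, 359347, which read 6.16 there without detection and was detected on 7 arrays. On the brighter probe, 486053, K4 was instead the highest mouse, at 10.64, and the lowest was B7 at 9.85. K minus B was 0.04 ± 0.32 log2 units averaged and 0.29 ± 0.20 on the brighter probe alone, and neither reached an unadjusted p of 0.05 (limma).

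Gapdh, the next enzyme and a familiar reference gene, was read from the list of further glycolysis genes. It spread 1.28-fold over the 9 mice, with mean log2 signals of 18.30, 18.39 and 18.26 for feeds B, K and G. Pgk1 encodes phosphoglycerate kinase, the first step that yields ATP (chrX:106187100-106203699). It had log2 signals of 13.03, 13.24 and 13.24 on feed B, 13.45, 13.10 and 13.47 on feed K and 13.22, 13.31 and 13.79 on feed G. The feeds overlapped and G11 stood highest. G minus B was 0.27 ± 0.22 log2 units (SE, 95% interval -0.23 to 0.77), and 0.09 ± 0.21 without G11. Pgam1, phosphoglycerate mutase, was likewise highest in G11, at 13.72, and lay between 12.84 and 13.29 elsewhere (F test adjusted p = 0.893, limma).

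Eno1, enolase (chr4:150236708-150248879), was dim. The brighter probe, 389611, was detected on 6 arrays and the other, 853712, in K1 alone. The averaged log2 signals were 5.47, 6.58 and 7.25 on feed B, 7.19, 6.52 and 6.49 on feed K and 5.89, 6.18 and 7.29 on feed G. All 3 mice on feed K were among the detected ones, compared with 2 on feed B and 1 on feed G, and the 3 feeds overlapped. K minus B was 0.30 ± 0.52 log2 units and G minus B 0.02 ± 0.52. Of the pyruvate kinases that follow enolase, Pkm2 was at 6.03, 6.10 and 6.52 on feed B, at 7.21, 7.91 and 7.59 on feed K and at 7.66, 6.64 and 7.56 on feed G (log2 signal). Pkm2 was detected in 1, 2 and 2 mice of B, K and G and met the limit of 3 arrays only through feeds K and G, so its higher values there are a description, with no test. Pklr, the liver and red cell pyruvate kinase, was detected in all mice, with K minus B of 0.52 ± 0.23 and G minus K of -0.60 ± 0.23 log2 units and an adjusted p of 0.886 in the F test (limma).

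Ldha, the lactate dehydrogenase A subunit that closes the pathway (chr7:46842274-46855627), had averaged log2 signals of 17.03, 17.04 and 17.33 on feed B, 17.06, 17.21 and 17.45 on feed K and 16.86, 17.06 and 17.65 on feed G. Feed G held both the lowest mouse (G4) and the highest (G11), and the means of the feeds lay within 0.11 log2 units. K minus B was 0.11 ± 0.25 log2 units (95% interval -0.46 to 0.67) and G minus B was 0.06 ± 0.25 (-0.51 to 0.62). The probes of Ldha differed in which mice were high. Probe 903368 peaked in G11 at 19.43 and read 18.25 to 18.84 elsewhere, whereas probe 897674 peaked in K4 at 16.28 and was lowest in G4 at 15.38.

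**Figure D3:**
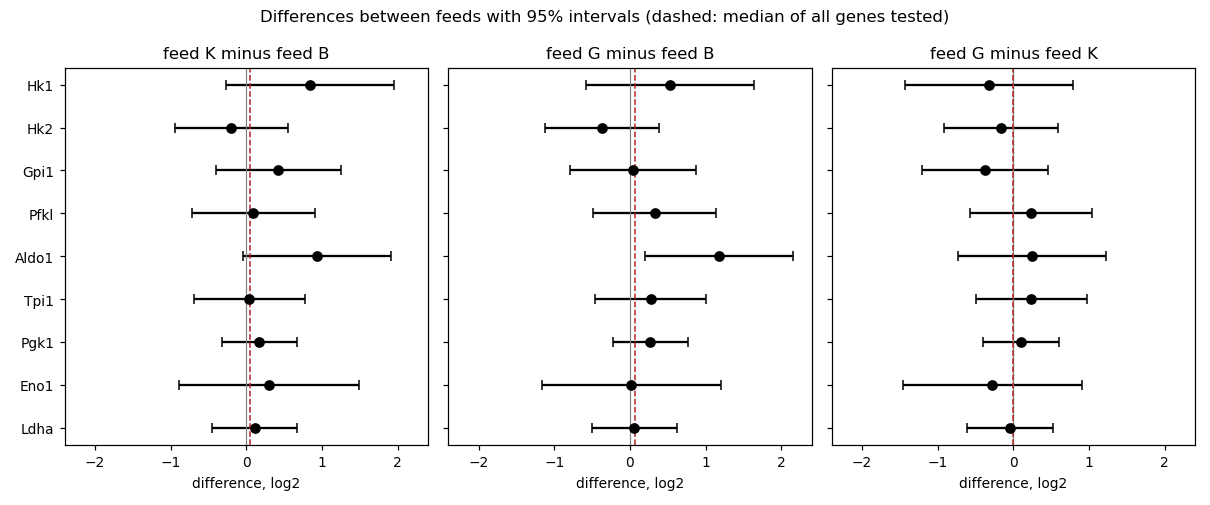
Differences between feeds for the 9 enzymes tested (horizontal axis, log2 units, with 95% intervals from the limma fit). The solid line is 0 and the dashed line the median difference of all genes tested. The interval of Aldo1 for G minus B, 0.20 to 2.16, is the only one that leaves out 0. It comes from the average of its probes, of which the dimmer was not detected on feed B.

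Read as a group, the 9 enzymes had a median difference of 0.17 log2 units for K minus B, 0.27 for G minus B and -0.05 for G minus K, beside 0.05, 0.06 and -0.01 over all 9856 genes tested. The estimate was above 0 for 8 of 9 in K minus B (56.8% of all genes), for 8 of 9 in G minus B (57.2%) and for 4 of 9 in G minus K (49.2%). Set against the median of all genes instead of 0, these counts were 7, 5 and 4 of 9. The counts and medians include Hk1, which met the detection limit only through feeds K and G, where its means are higher. They also include Aldo1, averaged with a probe that was not detected on feed B. Several other averages hold dim probes without detection on some arrays. With the brightest probe of each gene, which leaves Hk1 in, the estimate was above 0 for 7, 6 and 3 of 9. The medians were then 0.18, 0.30 and -0.18 for K minus B, G minus B and G minus K. K minus B and G minus B share the mice on feed B. The counts for G minus B and G minus K leaned on mouse G11, which was the highest of the 9 mice for 4 of the 7 enzymes detected on all arrays (Pfkl, Aldo1, Pgk1 and Ldha), compared with 13.3% of all such genes. Without G11 the median of G minus B went from 0.27 to -0.00 log2 units with 4 of 9 above 0, and that of G minus K from -0.05 to -0.28 with 1 of 9 above 0. Without B7 the medians of K minus B and G minus B were 0.08 and 0.05, each with 6 of 9 above 0. The median of K minus B was 0.29 without K3 and 0.28 without K4, and that of G minus K was 0.11 without G4 and 0.02 without G8. With median scaling the medians were 0.54, 0.54 and 0.07, beside 0.40, 0.53 and 0.11 over all genes. The sign of G minus K turned together with that of all genes, and 4 of 9 lay above the median of all genes under both scalings. G11 had the highest signals of the ileal markers Fabp6, Slc10a2 and Fgf15 (Ostb was highest in B10), and the part of that in these levels was not tested.

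Of the 30 further genes of glycolysis, pyruvate entry and lactate export, 26 had a probe and 19 were tested. The F test gave an unadjusted p below 0.05 for 3 of the 19 (Pfkm, Pfkfb4 and Pkm2, the last of which met the detection limit only through the feeds where it is high), compared with 5.45% of all genes, and an adjusted p below 0.05 for 0. Pfkfb4, which makes the allosteric activator of phosphofructokinase, had log2 signals of 11.17, 10.83 and 11.10 on feed B, 10.71, 10.59 and 10.72 on feed K and 10.38, 10.13 and 9.54 on feed G. The feeds stood in 3 separate ranges, with G minus B of -1.01 ± 0.24 log2 units (unadjusted p = 0.00276, adjusted p = 0.472 by limma). Pfkfb4 was named for its small F test p, and the share of all genes with such ranges was not counted. Pdhb and Pdk1, which encode a subunit of pyruvate dehydrogenase and a kinase that restrains it, had F test adjusted p-values of 0.886 and 0.892 (limma). The glucose transporter Slc2a1 was detected in 0 of 9 mice. Of 6 gluconeogenesis genes, 1 had an unadjusted p below 0.05 (G6pc, which releases free glucose; 0.0106, adjusted p = 0.746 by limma), with mean log2 signals of 11.65, 9.81 and 8.84 for B, K and G. All 9 genes of the hypoxia response were tested and 0 had an unadjusted F test p below 0.05. In G minus B the estimate was above 0 for 8 of the 9 (57.2% of all genes). An unadjusted p below 0.05 came for 2 of them, compared with 5.78% of all genes. These were Bnip3 (0.0212, adjusted 0.81, limma) and Vhlh. Vhlh was detected in 0, 2 and 3 mice of B, K and G. It met the limit of 3 arrays only through feeds K and G, so its higher values there are a description, with no test. The 8 include Vhlh, and also Arnt, which was detected in 2 of 3 mice on feed B and read 5.49 in B7. G11 was the highest of the 9 mice for Hif1a, Epas1, Egln1, Egln3, Bnip3 and Car9, as it was for 13.3% of all genes detected on all arrays. The part of that mouse in the count was not tested. Hif1a, the oxygen-regulated subunit whose partner sites are the letters printed above, had mean log2 signals of 10.72, 10.92 and 11.02 for B, K and G. Those of Bnip3, one of the targets, were 10.77, 11.18 and 11.46 (F test unadjusted p = 0.0587 by limma).

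Enzymes of glycolysis often serve as reference genes, for which a level that varies no more than 2-fold between samples is a common limit. Of the 7 enzymes detected on all arrays, 2 kept within it (Pgk1 with a range of 1.69-fold and Ldha with 1.73-fold), whereas 57.7% of all genes that were detected in every mouse did. The SD of the log2 signal over the 9 mice was 0.229 for Pgk1, 0.249 for Ldha, 0.376 for Tpi1, 0.395 for Hk2, 0.424 for Pfkl, 0.458 for Gpi1 and 0.732 for Aldo1. Their median was 0.395, beside 0.294 over the 5992 genes detected on all arrays. Aldo1, with a range of 4.72-fold, was more variable than 94.9% of these genes, and Pgk1 more variable than 30.9%. These SDs depended on the scaling of the arrays: with median scaling they were 0.476 for Pgk1, 0.390 for Ldha and 0.565 for Tpi1, and in the series table that of Pgk1 was 0.400. The SD over all genes was not taken with these scalings, so whether the rise is particular to the enzymes was not tested.

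Single probes were also read. Of the 9 member probes detected on all arrays, 5 kept within 2-fold, compared with 60.7% of all such probes, and their median SD was 0.275, beside 0.284 over 6299 probes. Pgk1 and Ldha enter this median with both of their probes, and with the brightest probe of each of the 7 genes the median SD was 0.353. Alone, the brighter probe of Tpi1 ranged 1.74-fold (SD 0.210) and that of Gpi1 ranged 1.68-fold (SD 0.264), where the averages with the dimmer probes ranged 2.25-fold and 2.68-fold. The brighter probe of Ldha ranged 2.26-fold (SD 0.353), beyond the limit that the average of its probes met. For Aldo1 the brighter probe alone ranged 4.05-fold with an SD of 0.665. Without mouse G11 the SD of Pgk1 was 0.153.

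**Figure D4:**
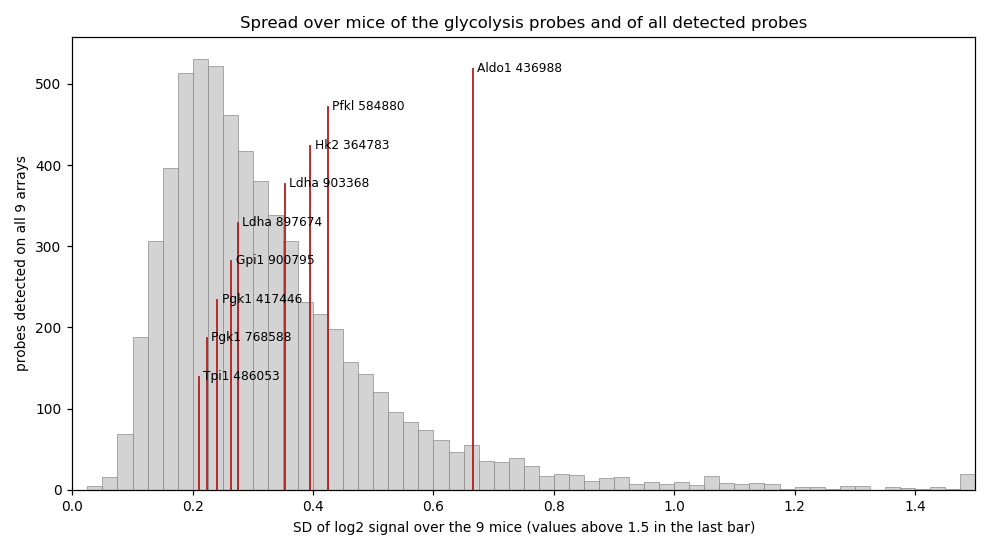
SD of log2 signal over the 9 mice (horizontal axis) for all 6299 probes with a gene symbol detected on all 9 arrays (grey bars, number of probes on the vertical axis). Red lines mark the 9 glycolysis probes among them, and their heights only separate the labels. The probes of Pgk1, Gpi1 and the brighter one of Tpi1 lie between 0.210 and 0.264, and the Aldo1 probe at 0.665 lies in the upper tail.

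Pgk1 and Ldha alone had a pair of probes detected in every mouse, and the agreement of the probes was tested for these. Over the 9 mice the probes of Pgk1 had r = 0.952 and Spearman rho = 0.95, with exact permutation p-values of 0.000107 and 0.000353 (0.00043 and 0.000705 after Benjamini-Hochberg adjustment over 4 tests, two-sided). Without the mice farthest from the median, G11 and B7, r was 0.898 (n = 7, exact permutation p = 0.00754), and with the mean of each feed subtracted it was 0.94. The probes of Ldha had r = 0.249 and rho = 0.35, with exact permutation p-values of 0.508 and 0.359 (0.508 and 0.478 adjusted). Without G11 and B8, r was 0.328 (n = 7, exact permutation p = 0.474). The call for Ldha depended on the scaling of the arrays: after median scaling r was 0.849 (exact permutation p = 0.00459) and in the table of the series 0.74 (exact permutation p = 0.0217). With these scalings the median of all genes differed between feeds, for G minus B by 0.53 and 0.29 log2 units. Shifts shared by whole arrays can raise r for any pair of probes. These values of r therefore cannot tell whether the Ldha probes agree. For the 4 other pairs, in which the dimmer probe was detected on 1 to 7 arrays, r lay between -0.44 (Tpi1) and 0.475 (Gpi1), given as a description only.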

How the data were processed

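The authors deposited a scanner table per array, with a spatially normalized, background-subtracted intensity, a signal-to-noise score and a flag for each spot. Their series table equals the assay-normalized intensity (linear, centring unstated, column medians of 1.06 to 1.53). At a signal-to-noise ratio under 1 the intensity is the noise measure itself (all 119010 such spots).

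Failed spots (flag over 5000) were dropped. Intensities were brought to one distribution by quantile normalization (arithmetic mean), the method of the study, converted to log2, and the probes of each gene averaged. All 9 arrays entered 1 limma fit of the genes detected on at least 3 arrays (limma 3.58.1, R 4.3.3, lmFit and eBayes). Python 3.11.15 with scipy 1.17.1, numpy 2.4.6 and pandas 2.3.3 served the permutation tests. The fit was tested on simulated data.

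The enzymes, gene lists and tests were chosen with earlier results of these data known. Named were the 10 enzymes, Gapdh, Pkm2, Pgam1, Aldo2 and the 6 further glycolysis genes with the smallest F test p. Slc2a1, G6pc, Hif1a, Bnip3, Vhlh and the single markers were named after their values were seen. Sequences and positions are from RefSeq, and probe sequences were not used here.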

Additional observations from a re-analysis of the deposited data

How the results depend on the processing

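The number of mice limits which differences could be seen, and low signals of Hk1, Pfkp, Eno1 and the dimmer probes are noise on arrays without detection. Of the 27 differences of the 9 enzymes tested, 8 were larger than their standard error, and 140 of the 142 alternative values of these kept their sign. Among the 8 were K minus B and G minus B of Hk1 and of Aldo1, which hold feed B values without detection. The alternatives reused the same arrays, so the kept signs were not taken as support. The other 19 of the 27 differences were within their standard error and were taken to have no direction. Of their 338 alternative values, 39 had the other sign. No alternative reached an adjusted p of 0.05 (limma, lowest 0.218). The sign turned for Gpi1, K minus B, with the brightest probe (-0.0364 log2 units) and for Hk2, G minus B, with median scaling (0.20). Median scaling put the median of all genes at 0.40 for K minus B, 0.53 for G minus B and 0.11 for G minus K (0.21, 0.29 and 0.07 in the series table), and relative to it Hk2 was at -0.33. For Aldo1, G minus B lay between 0.31 (brightest probe) and 1.55, with an unadjusted p below 0.05 in 12 of 18 alternatives. Apart from the brightest probe, the alternatives averaged in the dimmer probe, which was not detected on feed B. The agreement of the Ldha probes, r = 0.249, passed the threshold with median scaling (0.849) and in the series table (0.74), where shifts shared by whole arrays can raise r.

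Of all genes, those detected on all arrays gave 1 with an adjusted p below 0.05 in the F test and in G minus B (4933432P15Rik, named after its value was seen) and 1 probe in the test over probes. When mice were left out in turn the counts ranged from 0 to 3 in the F test, 0 to 10 for K minus B, 0 to 3 for G minus B, 0 to 0 for G minus K and 0 to 3 over probes, and the calls came without mouse B10 (E130201N16Rik, Fbxo23 and Rhoq in the F test, named after their values were seen). The enzymes were among these in 0 cases. Unadjusted counts were 537 in the F test, 641 for K minus B, 570 for G minus B, 462 for G minus K and 571 over probes. They were 1104, 1243, 1833, 378 and 1213 with median scaling, 917, 1004, 997, 700 and 1004 without a filter, and 978, 1126, 1046, 500 and 1046 without B10. Further, they were 1042 for G minus K with array weights, 364 and 360 for K and G minus B in genes detected on all arrays, and 404 and 300 for K minus B and G minus K without K1. The share of higher calls was 69.9%, 67.4% and 47.8% for K minus B, G minus B and G minus K, 95.4%, 97.2% and 66.4% with median scaling and 78.0%, 80.6% and 58.0% in the series table. The r of the probes ranged from 0.932 to 0.978 for Pgk1 and from 0.117 to 0.353 for Ldha when mice were left out, and the median SD of the enzymes from 0.364 to 0.42. No paired analysis was possible because the mouse numbers are those of different animals and no pair of feeds shares more than 1 number. A fit with slide or scan as a block was not run, since each array is a slide of its own and no scan batch is given, nor was the exact permutation test over all genes.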
